A study of Homo sapiens with 12 samples.

Results

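Serum response factor (SRF) and 9 genes of the contractile and actin apparatus (ACTA2, ACTG2, TAGLN, CNN1, CNN2, TPM1, TPM2, MYL9 and VCL) were followed in EGFR-mutant lung cancer cells treated with EGFR inhibitors. The genes were taken by symbol, each matching 1 row of the gene table, so 10 of 60591 listed genes are described. PC9 and H1650 are established non-small cell lung cancer lines, unmodified in this experiment. Cells were harvested for RNA at T0, when drug was added to the other wells (0.1% DMSO vehicle), or 36 h later, when the treated wells had received erlotinib at 10 μM or osimertinib at 0.1 μM. Erlotinib is a reversible EGFR kinase inhibitor, and osimertinib binds the kinase covalently. There were 6 groups with 2 numbered replicates each, and the 12 libraries held 17961765 to 26346187 counted reads. The study calls the replicates biological, while the labels do not say whether they were separate cultures, so the p-values measure the spread between these libraries. Treated cells had been in culture for 36 h longer than T0 cells and no vehicle library of 36 h was analysed here, so drug and time cannot be told apart. In bulk RNA, fewer cells expressing a gene and less RNA per cell cannot be told apart either.

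SRF is a transcription factor that binds a short A/T-rich element, the CArG box, in the promoters of its targets. Its output depends on its partners: the myocardin-related factors (MRTFA and MRTFB), which are held back by free actin monomers and carry it to cytoskeletal and smooth muscle genes, and the ternary complex factors (ELK1, ELK3 and ELK4), which are phosphorylated by ERK and carry it to immediate-early genes such as FOS and EGR1. EGFR signals to ERK, and actin dynamics and adhesion feed the other branch. In epithelial cancer cells many of the cytoskeletal targets are expressed at some level, while ACTA2, ACTG2 and CNN1 are classically smooth muscle genes.

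The promoter sequences near the start sites of these genes were searched for exact matches to the consensus of the CArG box. RefSeq windows of 250 bases before to 50 bases after a gene's start (GRCh38.p14) matched 8 of the 10 symbols. TAGLN and MYL9 were not matched. The CArG box consensus, which reads the same on both strands, was found in the windows of 3 of the 8, against 1.6% of the 27305 symbols with a window and 1.29% of the 35116 windows. The genes were chosen as SRF-linked, so this share is no test. In the lists of related genes described below it was 42.9% for adhesion genes, 36.4% for other isoforms, 28.6% for immediate-early genes and 23.1% for the contractile motor. It was 0% for the SRF cofactors and the filament turnover genes. The pieces that hold the matches lie upstream of the start site on the plus strand, are printed 5′ to 3′ and have the matching bases in capitals.
SRF, chr6:43171219-43171268: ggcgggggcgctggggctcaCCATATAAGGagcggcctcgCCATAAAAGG
ACTG2, chr2:73892878-73892964: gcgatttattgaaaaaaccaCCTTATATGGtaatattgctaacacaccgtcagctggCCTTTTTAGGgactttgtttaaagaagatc
CNN2, chr19:1026499-1026548: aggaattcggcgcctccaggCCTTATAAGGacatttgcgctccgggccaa
The SRF promoter held 2 matches, which began at -30 and -10 relative to the start site. The ACTG2 promoter also held 2, at -110 and -73, and the CNN2 promoter held 1, at -89. ACTA2, CNN1, TPM1, TPM2 and VCL had no match to these letters within their windows. Elements that depart from the consensus or lie outside the windows were not sought, so a gene without a match may still carry one. A match is a description of the letters and was not tested for binding.

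At T0 most of the genes were higher in H1650 than in PC9. With edgeR's quasi-likelihood test and a Benjamini-Hochberg adjusted p under 0.05 as the call, 8 of 10 were higher in H1650, where 35.8% of the 19108 genes tested were called higher. VCL was lower, as were 33.8% of genes, and TAGLN was not called. ACTA2, ACTG2 and CNN1 reached the expression filter (0.463 CPM, the reads of a gene scaled to a common library total) in all libraries of only 1 or 2 groups, so they entered the test through the groups in which they were high. Of the 7 other genes, each with a mean of at least 50 counts in every group, 5 were higher and 1 was lower. ACTG2 and CNN1 had 0 counts in PC9 at T0, and against a floor of 3 counts per library they were at least 10.8-fold and 5.33-fold higher in H1650. Per kilobase of counted exon length, the order in H1650 at T0 ran from MYL9 at 391 ± 29.8 normalized CPM per kb (mean ± SD, n = 2, as for all such values) and TPM2 at 247 ± 1.15 to TPM1 at 121 ± 5.18 and CNN2 at 76.1 ± 3.67. In PC9 at T0 the same scale was led by CNN2 at 50.4 ± 0.686 and VCL at 42.4 ± 1.53, while TPM1 stood at 13.1 ± 0.0791, SRF at 11.1 ± 0.349, TPM2 at 2.99 ± 0.344 and MYL9 at 1.69 ± 0.176. SRF in H1650 at T0 was at 20.8 ± 2.34 normalized CPM per kb.

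After drug, more of the genes were higher than lower in PC9, while most were lower in H1650. In PC9 with erlotinib, 6 of 10 were higher than at T0 (32.7% of all genes tested were higher) and 2 were lower (29.1%). With osimertinib 8 were higher (32.7%) and 1 was lower (28.7%). In H1650, 9 of 10 were lower with erlotinib (18.5% of all genes) and 9 with osimertinib (17.9%), and TAGLN was higher with both (18.0% and 17.8% of all genes). ACTA2, ACTG2 and CNN1 are among the 9 lower genes with either drug, and each passed the filter through H1650 at T0. CNN1 also passed it through PC9 with osimertinib. Over the 7 well-counted genes the counts were 5 higher and 2 lower in PC9 with erlotinib, 6 and 1 with osimertinib, and 1 higher and 6 lower with either drug in H1650. Their median log2 fold change was 0.66 in PC9 with erlotinib and 1.29 with osimertinib, where the medians of all genes were 0.07 and 0.06. In H1650 the medians were -1.32 and -1.09, beside 0.01 and 0 over all genes. Both drugs are compared with the same T0 libraries, so the results with erlotinib and osimertinib are not independent of each other.

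**Figure D1:**
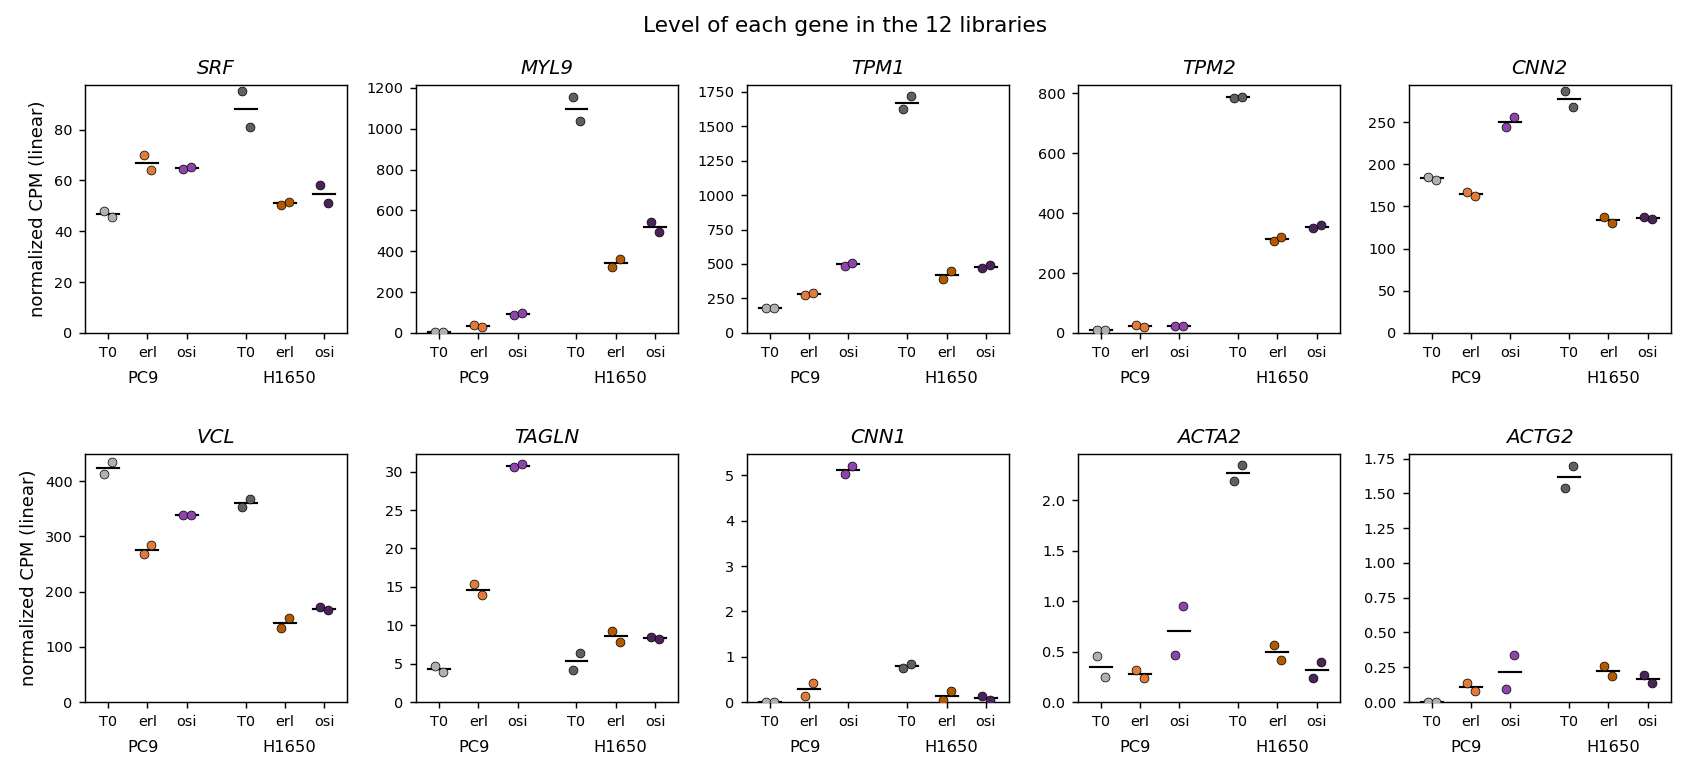
Level of each gene in the 12 libraries, as normalized CPM on a linear axis that starts at 0 and differs between panels (erl, 36 h erlotinib; osi, 36 h osimertinib). Points are libraries and bars are means of 2. SRF, MYL9, TPM1, TPM2, CNN2, ACTA2 and ACTG2 are highest in H1650 at T0. TAGLN and CNN1 are highest in PC9 with osimertinib, and VCL is highest in PC9 at T0.

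SRF itself (chromosome 6, 43171299 to 43181507, plus strand, GRCh38) followed this pattern with small changes. In PC9 it was at 47.9 and 45.8 normalized CPM at T0, at 70.1 and 63.9 with erlotinib and at 64.5 and 65.1 with osimertinib. In H1650 it was at 95.1 and 81.1 at T0, at 50.4 and 51.6 with erlotinib and at 58.0 and 51.0 with osimertinib. Thus no treated library of either line overlapped the T0 libraries of that line, and SRF was higher than T0 in PC9 and lower in H1650. The log2 fold change in PC9 was 0.52 ± 0.0894 (SE; edgeR adjusted p = 1.33e-05) with erlotinib and 0.47 ± 0.0903 (adjusted p = 5.43e-05) with osimertinib. In H1650 these values were -0.79 ± 0.0883 (adjusted p = 4.68e-08) and -0.69 ± 0.0876 (adjusted p = 3.83e-07), in the same order of drugs, which is kept for all pairs of values that follow. The 6 groups ran from H1650 at T0 down to PC9 at T0. The neighbours PC9 with erlotinib and PC9 with osimertinib overlapped in that order, as did the treated H1650 groups.

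MYL9 (chromosome 20, 36541484 to 36551447, plus strand), the regulatory light chain of smooth muscle and non-muscle myosin, showed the widest differences among the well-counted genes. PC9 held 5.09 and 4.39 normalized CPM at T0, 39.3 and 31.2 with erlotinib, and 86.4 and 96.2 with osimertinib. H1650 held 1157 and 1039 at T0, 325 and 364 with erlotinib, and 542 and 492 with osimertinib. No groups overlapped, and every H1650 library stayed above every PC9 library. In PC9 the log2 fold change was 2.89 ± 0.134 with erlotinib (edgeR adjusted p = 8.02e-17) and 4.27 ± 0.129 with osimertinib (adjusted p = 5.18e-21). In H1650 it was -1.67 ± 0.0890 (adjusted p = 2.25e-14) and -1.09 ± 0.0874 (adjusted p = 1.14e-10). The mean level in H1650 was 231 times that in PC9 at T0, 9.77 times with erlotinib and 5.66 times with osimertinib.

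The tropomyosins lie along the actin filament and control access of myosin and other proteins to it. TPM1 (chromosome 15, 63042632 to 63071915, plus strand) was at 179 and 181 normalized CPM in PC9 at T0, at 278 and 290.2 with erlotinib, and at 486 and 507 with osimertinib. In H1650, TPM1 was at 1620.4 and 1721 at T0, at 393 and 447 with erlotinib, and at 470 and 493 with osimertinib. Its levels in the lines therefore converged: the H1650 to PC9 ratio was 9.29 at T0, 1.48 with erlotinib and 0.970 with osimertinib, where the libraries of the lines overlapped. In PC9 the log2 fold change of TPM1 was 0.66 ± 0.0728 and 1.47 ± 0.0736, while H1650 gave -1.99 ± 0.0735 and -1.80 ± 0.0729 (largest edgeR adjusted p of the 4, 7.26e-09).

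TPM2 (chromosome 9, 35681992 to 35690121, minus strand) was at 10.3 and 8.74 normalized CPM in PC9 at T0, at 27.9 and 21.4 with erlotinib, and at 23.6 and 22.8 with osimertinib. In H1650 it was at 784 and 789 at T0, at 308 and 321 with erlotinib, and at 351 and 359 with osimertinib. Every H1650 library was above every PC9 library, with a ratio of group means of 82.7 at T0, 12.7 with erlotinib and 15.3 with osimertinib. PC9 gave log2 fold changes of 1.37 ± 0.114 and 1.29 ± 0.117 for TPM2, and H1650 gave -1.32 ± 0.0820 and -1.15 ± 0.0815 (largest edgeR adjusted p of the 4, 1.41e-10).

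The calponins and transgelin are related actin-binding proteins. CNN2, the widely expressed calponin (chromosome 19, 1026581 to 1039068, plus strand), was at 185 and 182 normalized CPM in PC9 at T0, at 167 and 162 with erlotinib, and at 245 and 256 with osimertinib. It was at 286 and 267 in H1650 at T0, at 137 and 131 with erlotinib, and at 137 and 135 with osimertinib. CNN2 was thus higher in PC9 with osimertinib only (log2 fold change 0.45 ± 0.0693, edgeR adjusted p = 2.42e-06), and lower in H1650 with both drugs (-1.05 ± 0.0700 and -1.02 ± 0.0698, largest adjusted p 4.45e-12). Its decrease in PC9 with erlotinib was slight (-0.16 ± 0.0694, adjusted p = 0.0487). That call was lost with upper quartile factors (-0.07, adjusted p = 0.369) and when either PC9 T0 library, either PC9 erlotinib library or H1650 T0 replicate 2 was left out (-0.18 to -0.14, adjusted p = 0.0540 to 0.189).

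TAGLN (chromosome 11, 117199321 to 117204782, plus strand) encodes transgelin, an actin-bundling protein used as a smooth muscle marker. It was the only one of the 10 genes called higher in all 4 comparisons of drug with T0. PC9 held 4.64 and 3.90 normalized CPM at T0, 15.4 and 13.9 with erlotinib, and 30.6 and 30.9 with osimertinib. H1650 held 4.20 and 6.40 at T0, 9.29 and 7.87 with erlotinib, and 8.40 and 8.24 with osimertinib. The T0 libraries of the lines overlapped, and treated PC9 libraries all lay above treated H1650 libraries. The log2 fold changes were 1.78 ± 0.171 and 2.85 ± 0.165 in PC9 (edgeR adjusted p = 4.91e-10 and 1.02e-14), and 0.68 ± 0.172 and 0.63 ± 0.171 in H1650 (adjusted p = 0.00247 and 0.00422). Both H1650 calls were lost without H1650 T0 replicate 1 (0.41, adjusted p = 0.0964, and 0.38, adjusted p = 0.137), and without H1650 T0 replicate 2 the values were 1.03 and 0.99. Exons of TAGLN overlap those of PCSK7 on the opposite strand, and the strandedness of the counts is not given in the sources used here, so reads in the overlap cannot be told apart. PCSK7 was at 23.0 to 38.1 normalized CPM as group means, and its log2 fold changes were between -0.33 and -0.01.

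VCL (chromosome 10, 73995193 to 74121363, plus strand) encodes vinculin, which links integrin and cadherin adhesions to actin. It was the only gene of the 10 called lower in all 4 comparisons of drug with T0 and the only one lower in H1650 than in PC9 at T0 (-0.23 ± 0.0712, edgeR adjusted p = 0.00546; -0.19, adjusted p = 0.0698, without PC9 T0 replicate 2). In PC9, VCL was at 412 and 434 normalized CPM at T0, at 267 and 284 with erlotinib, and at 339 in both libraries with osimertinib. In H1650 it was at 354 and 367 at T0, at 134 and 153 with erlotinib, and at 171 and 166 with osimertinib. No groups overlapped. The log2 fold changes were -0.62 ± 0.0716 and -0.32 ± 0.0715 in PC9 (adjusted p = 1.69e-08 and 0.000319), and -1.33 ± 0.0734 and -1.10 ± 0.0728 in H1650 (largest adjusted p 2.56e-12). VCL exons overlap AP3M1 on the opposite strand. AP3M1 was also lower in PC9 (-0.23 and -0.39) and had log2 fold changes of 0.02 and 0.03 in H1650.

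**Figure D2:**
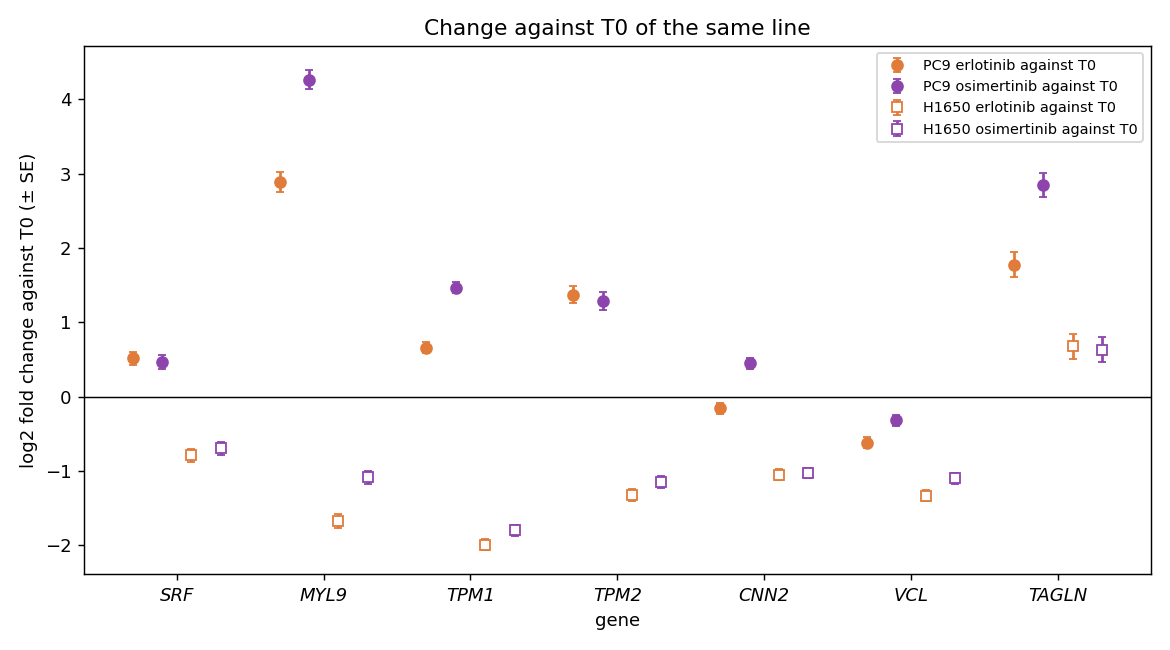
Log2 fold change against T0 of the same line (points, edgeR estimate; bars, ± SE) for the 7 genes with a mean of at least 50 counts in every group. Filled circles are PC9 and open squares H1650; SRF, MYL9, TPM1 and TPM2 lie above 0 in PC9 and below 0 in H1650 with both drugs, TAGLN lies above 0 throughout and VCL below 0 throughout.

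The 3 classical smooth muscle genes were counted at low depth, so their counts are given. CNN1 reached the expression filter in all libraries of H1650 at T0 and of PC9 with osimertinib only. Its changes that involve these groups are tied to how it entered the test. CNN1, the smooth muscle calponin (chromosome 19, 11538717 to 11550323, plus strand), had 0 counts in both PC9 T0 libraries, 3 and 11 with erlotinib, and 109 and 93 with osimertinib. A count of 0 allows up to 3, which is 0.148 to 0.151 normalized CPM in these libraries and covers counting error only. Against that floor per library, CNN1 was at least 34.3-fold higher with osimertinib (edgeR adjusted p = 5.13e-10). With erlotinib it was called higher (adjusted p = 0.00290), but replicate 1 did not pass the floor, so no fold is given, and the call was lost without PC9 erlotinib replicate 2 (adjusted p = 0.0540). In H1650, CNN1 had 16 and 22 counts at T0, 1 and 5 with erlotinib, and 3 and 1 with osimertinib. The decrease with erlotinib had a log2 fold change of -2.41 ± 0.666 (adjusted p = 0.00535), which was -1.75 (adjusted p = 0.0875) without H1650 erlotinib replicate 1 and -3.82 without replicate 2. For osimertinib the ratio of T0 to treated levels was 8.71, with an exact 95% counting interval of 3.13 to 33.6 (edgeR adjusted p = 0.00140). The fitted log2 fold change there was -3.04, or -4.00 and -2.43 without osimertinib replicate 1 or 2.

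ACTA2 and ACTG2 encode the smooth muscle actins of vessels and of the gut. Both reached the expression filter in all libraries of H1650 at T0 only, so their decreases in H1650 are tied to how they entered the test. ACTG2 (chromosome 2, 73892314 to 73919865, plus strand) had 0 counts in both PC9 T0 libraries, 3 and 2 with erlotinib, and 2 and 6 with osimertinib. It was called higher with osimertinib (edgeR adjusted p = 0.0109), but replicate 1 had no more than the 3 counts that 0 allows, so no fold is given. The call was lost without either PC9 T0 library (adjusted p = 0.0594 and 0.0619) or PC9 osimertinib replicate 2 (adjusted p = 0.116), and with erlotinib ACTG2 was not called (adjusted p = 0.0537). In H1650 it had 33 and 44 counts at T0, 5 and 4 with erlotinib, and 4 and 3 with osimertinib, with log2 fold changes of -2.84 ± 0.619 (adjusted p = 0.000596) and -3.28 ± 0.644 (adjusted p = 0.000192). ACTA2 (chromosome 10, 88935074 to 88991339, minus strand) had 9 and 5 counts in PC9 at T0, 7 and 6 with erlotinib, and 10 and 17 with osimertinib. In H1650 it had 47 and 61 at T0, 11 and 9 with erlotinib, and 5 and 9 with osimertinib. ACTA2 was not called in PC9 (-0.36 ± 0.663, adjusted p = 0.670, and 0.98 ± 0.590, adjusted p = 0.155) and was lower in H1650 (-2.20 ± 0.484, adjusted p = 0.000631, and -2.80 ± 0.512, adjusted p = 7.54e-05). Its exons overlap FAS on the opposite strand. FAS was lower in PC9 with both drugs (-2.26 and -1.49) and was not called in H1650 (-0.32 and -0.29).

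The difference between the lines was tested directly, by subtracting the log2 fold change in PC9 from that in H1650. It was below 0 for all 10 genes with both drugs. The same T0 libraries enter this contrast, so it is not independent of the results above. ACTA2, ACTG2 and CNN1 passed the filter through H1650 at T0, which favours a value below 0 for them. With erlotinib 9 of 10 were called (19.8% of all genes were called in this direction) and with osimertinib 10 of 10 (20.5%), including 7 of 7 well-counted genes with either drug. The median over these 7 was -1.30 with erlotinib and -2.21 with osimertinib, beside -0.03 over all genes in both cases. ACTA2 with erlotinib was the gene not called (-1.84 ± 0.841, edgeR adjusted p = 0.0830). MYL9 had the largest difference of the 7 genes, at -4.56 ± 0.160 and -5.35 ± 0.157, and VCL the smallest, at -0.71 ± 0.102 and -0.78 ± 0.102. VCL was lower in both lines, and its difference below 0 is that of a deeper decrease in H1650, whereas TAGLN was higher in both lines and increased more in PC9.

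**Figure D3:**
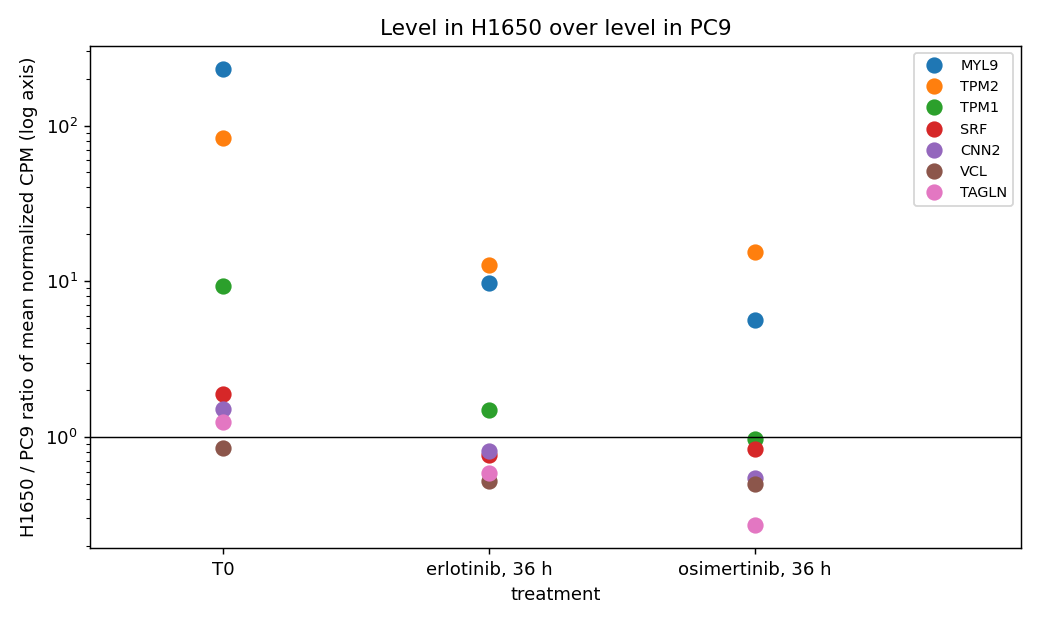
Ratio of the mean normalized CPM in H1650 to that in PC9 at T0 and with each drug, on a log axis with the line at 1 marking equal levels. MYL9 falls from 231 at T0 to 9.77 and 5.66, TPM2 from 82.7 to 12.7 and 15.3, and TPM1 from 9.29 to 1.48 and 0.970. SRF and CNN2 pass from above 1 to below 1. TAGLN also ends below 1, but its T0 libraries overlapped between the lines and its T0 difference was not called.

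The drugs were used at different doses, so their groups are compared as treated and not as compounds at a matched dose. In PC9, 6 of 10 genes were higher with osimertinib than with erlotinib, where 10.1% of all genes were higher, and 0 were lower. CNN1, among the 6, passed the filter partly through PC9 with osimertinib. Of the 7 well-counted genes, 5 were higher. The increase was 1.38 ± 0.0978 for MYL9, 1.07 ± 0.140 for TAGLN, 0.81 ± 0.0720 for TPM1, 0.61 ± 0.0693 for CNN2 and 0.30 ± 0.0716 for VCL on the log2 scale (largest edgeR adjusted p of these 5, 0.00349, for VCL, whose call was lost without PC9 erlotinib replicate 1 at 0.26, adjusted p = 0.0601). CNN1 was also higher (4.12 ± 0.478, adjusted p = 3.87e-07; 5.19 without PC9 erlotinib replicate 2). SRF (-0.05 ± 0.0879, adjusted p = 0.800) and TPM2 (-0.08 ± 0.102, adjusted p = 0.665) were not called in that comparison. In H1650, 2 of 10 were higher (5.02% of all genes), MYL9 by 0.59 ± 0.0874 (adjusted p = 3.27e-05) and VCL by 0.23 ± 0.0733 (adjusted p = 0.0455). The VCL call was lost in 7 of the 12 fits that left out 1 library (0.14 to 0.26, adjusted p = 0.0522 to 0.453). These were the fits without either PC9 T0, either H1650 T0 or either H1650 osimertinib library and without H1650 erlotinib replicate 1.

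The other genes of the pathway were taken from 6 lists. Among the cofactors of SRF, MYOCD was not tested. MRTFA was at 62.7 ± 0.897 normalized CPM in PC9 at T0, 110 ± 7.67 with erlotinib and 143 ± 1.14 with osimertinib, log2 increases of 0.82 ± 0.0836 (edgeR adjusted p = 1.72e-09) and 1.19 ± 0.0838 (adjusted p = 6.83e-13). In H1650 it was at 123 ± 7.66, 115 ± 10.7 and 142 ± 10.2, and the difference between the lines was called with both drugs (-0.92 ± 0.116 and -0.98 ± 0.116). MRTFB differed from T0 in PC9 by 0.26 with erlotinib (a call lost with no filter, adjusted p = 0.0531, and without PC9 T0 replicate 1 at 0.15, adjusted p = 0.222) and by 0.06 with osimertinib, which was not called. ELK3 was lower in PC9 with both drugs (-0.87 ± 0.0797 and -0.59 ± 0.0796), as was ELK1 (-0.32 ± 0.0949 and -0.27 ± 0.0962). The ELK1 call with osimertinib was lost with upper quartile factors (-0.20, adjusted p = 0.0667), without PC9 T0 replicate 1 (adjusted p = 0.0734) and without PC9 osimertinib replicate 2 (adjusted p = 0.0832). ELK4 was at -0.07 ± 0.0839 in PC9 with erlotinib, which was not called, and was lower with osimertinib (-0.41 ± 0.0856, adjusted p = 0.000155). Over the 5 tested cofactors, 2 were higher and 2 lower in PC9 with erlotinib, 1 and 3 with osimertinib, 1 and 1 in H1650 with erlotinib, and 1 and 0 with osimertinib.

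The other isoforms of the same protein families (actins, transgelins, calponins, tropomyosins and myosin light chains) and the adhesion genes were mostly lower in H1650. The shares of all tested genes called, for all the lists, were 32.7% higher and 29.1% lower in PC9 with erlotinib, 32.7% and 28.7% in PC9 with osimertinib, 18.0% and 18.5% in H1650 with erlotinib, and 17.8% and 17.9% in H1650 with osimertinib. Of 10 tested isoforms, 10 were lower in H1650 with erlotinib and 7 with osimertinib, while in PC9 3 were higher and 5 lower with erlotinib and 4 higher and 3 lower with osimertinib, shares of 30% and 50%, and of 40% and 30%. MYL6, the essential light chain of non-muscle and smooth muscle myosin, was higher in PC9 (0.57 ± 0.0818 and 1.13 ± 0.0823) as MYL9 was. TPM3, another tropomyosin gene, was lower in PC9 (-1.61 ± 0.0723 and -1.47 ± 0.0722) and in H1650 (-0.87 ± 0.0711 and -0.77 ± 0.0709). Thus TPM3 fell in PC9 while TPM1 and TPM2 rose (largest edgeR adjusted p of the 6 values for MYL6 and TPM3, 7.07e-07). Of 15 actin crosslinking and focal adhesion genes, 14 were lower in H1650 with erlotinib and 13 with osimertinib, with medians of -0.69 and -0.79. FHL1, a LIM-domain gene, was the adhesion gene higher in H1650 with erlotinib (1.04 ± 0.148, adjusted p = 2.12e-06) and was not called there with osimertinib (-0.28 ± 0.156). It is named here after its values were seen, as are the collagen, PDGFRB, SYNPO2 and endothelial values given for the marker lists. In PC9, 5 of them were higher and 6 lower with erlotinib, and 7 higher and 2 lower with osimertinib, with medians of -0.04 and 0.07, and the 5 and 6 are 33.3% and 40% of the list. FLNA, the actin crosslinker filamin A, was at 3005 ± 227 normalized CPM in H1650 at T0 and at 935 ± 97.0 and 776 ± 57.9 after drug. FHL2, a LIM-domain partner of SRF and its target, was higher in PC9 (1.18 ± 0.0777 and 1.22 ± 0.0780) and lower in H1650 (-0.90 ± 0.0812 and -0.94 ± 0.0811).

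Among 14 tested genes of the contractile motor and its regulators, 5 were higher and 5 lower in PC9 with erlotinib and 6 and 5 with osimertinib, which is 35.7% and 35.7%, and 42.9% and 35.7%, of the list. In H1650, 1 was higher and 8 lower with erlotinib, and 1 and 9 with osimertinib. SMTN, which encodes smoothelin, was lower in both lines, with log2 fold changes in PC9 of -1.97 ± 0.0884 and -1.84 ± 0.0889 against -0.89 ± 0.0856 and -0.65 ± 0.0844 in H1650. LMOD1, a leiomodin of smooth muscle, had 4 counts over both PC9 T0 libraries, 46 with erlotinib and 49 with osimertinib, which are ratios of 9.62 (exact 95% counting interval 3.51 to 36.8) and 12.4 (4.56 to 47.5). It reached the expression filter in all libraries of the treated PC9 groups only, so its increases are tied to how it entered the test. Of the 10 filament turnover genes, 4 were higher and 6 lower in PC9 with erlotinib, 4 and 5 with osimertinib, 0 and 8 in H1650 with erlotinib, and 1 and 6 with osimertinib. GSN, which encodes the filament-severing protein gelsolin, was higher in PC9 (2.10 ± 0.0783 and 2.52 ± 0.0793). It was also the turnover gene higher in H1650 with osimertinib. There it was at 214 ± 16.2 normalized CPM at T0, 222 ± 14.4 with erlotinib and 315 ± 18.2 with osimertinib. PFN1, the monomer-binding profilin, was lower in both lines (-1.14 and -0.98 in PC9, -0.83 and -0.63 in H1650).

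The immediate-early genes of the ternary complex branch were mostly higher after drug in PC9. Of 9, 5 were higher and 2 lower in PC9 with erlotinib, and 8 were higher and 1 lower with osimertinib. In H1650, 0 were higher and 7 lower with erlotinib, and 0 and 3 with osimertinib. FOS was at 17.6 ± 2.87 normalized CPM in PC9 at T0, at 26.5 ± 4.75 with erlotinib and at 133 ± 8.23 with osimertinib (log2 fold changes 0.59 ± 0.123 and 2.92 ± 0.117, edgeR adjusted p = 0.000156 and 2.42e-18). In H1650, FOS was at 128 ± 14.5 at T0, 73.2 ± 5.10 with erlotinib and 125 ± 7.65 with osimertinib. EGR3 was the gene lower in PC9 with both drugs and rests on few reads: 6 and 10 counts at T0, 0 in both erlotinib libraries and 0 and 3 with osimertinib, so that it was at least 3.17-fold lower with erlotinib. Its call with osimertinib was lost with DESeq2 (adjusted p = 0.109) and without PC9 T0 replicate 2 (-1.90), PC9 osimertinib replicate 1 (-1.22) or either H1650 osimertinib library (-2.30), with adjusted p = 0.0511 to 0.350. The median of the 9 genes in PC9 was 0.59 with erlotinib and 1.45 with osimertinib.

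**Figure D4:**
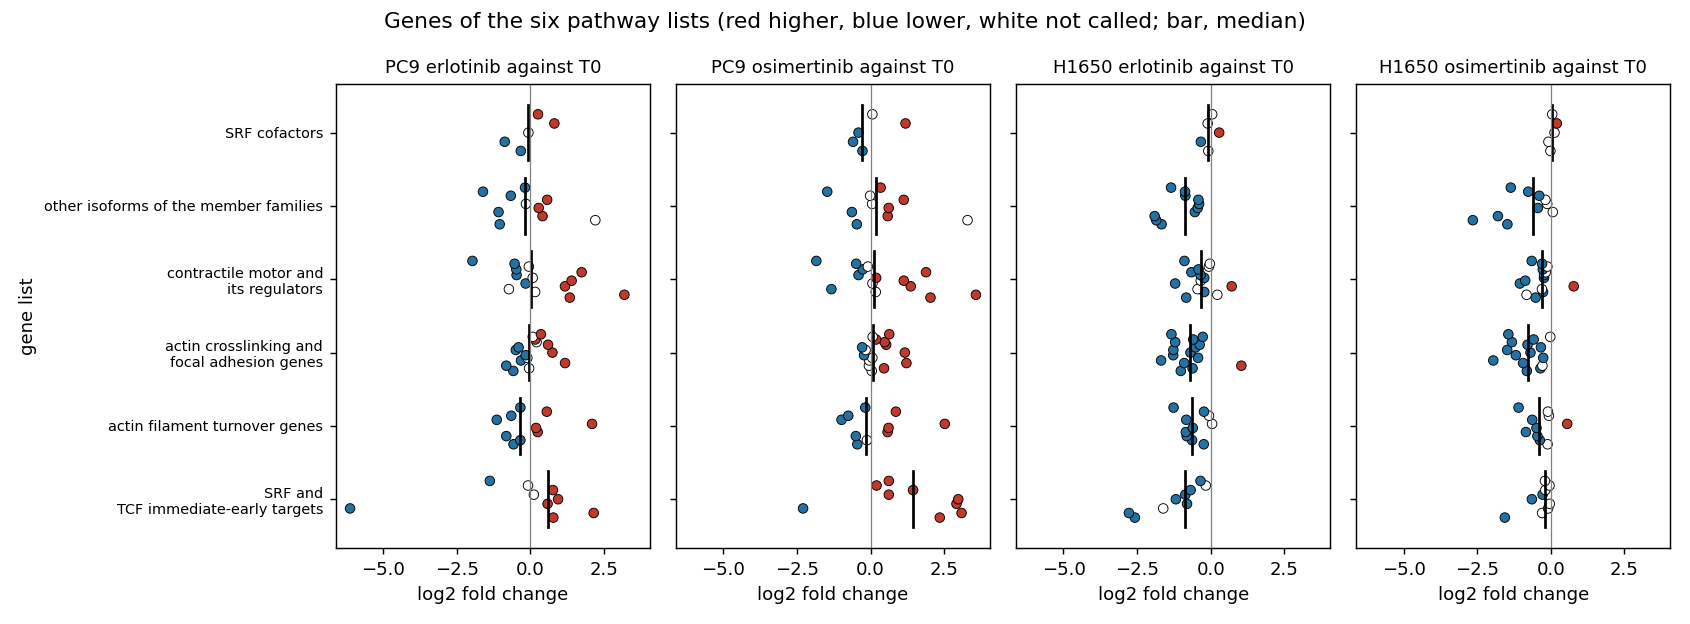
Log2 fold change against T0 of every tested gene of the 6 pathway lists (points; red, called higher; blue, called lower; white, not called; black bars, list medians) in the 4 comparisons of drug with T0. In H1650 most isoform and adhesion genes lie below 0, while in PC9 the same lists are spread on both sides and the immediate-early genes lie mostly above 0.

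The 6 epithelial markers (EPCAM, CDH1, KRT7, KRT8, KRT18 and KRT19) were each above 10 normalized CPM in every group and summed to between 6162 and 13298. Of the 7 smooth muscle markers, MYOCD was at 0 to 1 counts and DES, a muscle intermediate filament gene, at 0 to 2, while MYH11 (6 to 37 counts), LMOD1 (1 to 28) and SYNPO2 (7 to 123) were detected in every library. SYNPO2 was higher in PC9 with both drugs (1.53 ± 0.392 and 1.56 ± 0.400, edgeR adjusted p = 0.00132 and 0.00125). LMOD1 was too, but it entered the test through these treated groups. MYH11 was lower in PC9 with osimertinib (-1.33 ± 0.579, adjusted p = 0.0488). The sum of the 7, which include CNN1 and ACTG2, was 0.958 to 2.62 normalized CPM in PC9 at T0, 3.85 to 4.18 with erlotinib and 7.95 to 10.3 with osimertinib, and in H1650 7.09 to 9.18 at T0 and 4.49 to 6.01 after drug. The 8 fibroblast markers summed to 17.2 to 45.9 normalized CPM, highest in PC9 with osimertinib. COL1A1 carried most of that sum in PC9, at 19.7 ± 1.99 at T0, 22.3 ± 2.63 with erlotinib and 40.7 ± 5.73 with osimertinib (log2 fold change 1.05 ± 0.123, adjusted p = 1.90e-08), and was at 10.6 to 13.7 as group means in H1650. COL3A1 was at 0 counts in PC9 and at 12.5 ± 0.656 normalized CPM in H1650 at T0, lower with erlotinib (6.91 ± 0.225) and higher with osimertinib (19.7 ± 0.151). PDGFRB had 0 to 1 counts in PC9 at T0, 10 to 12 with erlotinib and 16 to 22 with osimertinib, and was called higher with both (adjusted p = 0.00282 and 8.98e-05). It had at most 4 counts in any H1650 library, so it entered the test through treated PC9, and these calls are tied to that. DCN, LUM and COL1A2 were at 0 to 3 counts. The 4 leukocyte markers summed to 0.462 to 3.96 normalized CPM and the 4 endothelial markers to 0.193 to 5.83. In PC9 the endothelial CDH5 (1.88 and 2.21) and VWF (2.41 and 3.42) were called higher with both drugs. PECAM1 was called lower there (-2.53 and -1.97), and KDR did not enter the test. VWF reached the expression filter in all libraries of the treated PC9 groups only, and PECAM1 in those of PC9 at T0 only. The calls of VWF and PECAM1 are therefore tied to how they entered the test. The part of these marker levels in the changes described here was not tested.

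For each gene, the gene of the table most like it across the 12 libraries was sought among 10293 or 10294 genes with a mean of at least 10 CPM, by Pearson's r of log2 CPM, which is a description because the 12 points share their groups. The nearest to SRF was ARHGAP45 (r = 0.977), to MYL9 COL16A1 (r = 0.995), to TPM1 CFL2 (r = 0.982), to TPM2 AAK1 (r = 0.996) and to CNN2 TPM4 (r = 0.975). TAGLN was most like INHA (r = 0.985) and VCL most like ALDH1B1 (r = 0.989). Among the low-counted genes, ACTG2 was most like TPM1 (r = 0.959), ACTA2 most like ADGRF4 (r = 0.906) and CNN1 most like NDEL1 (r = 0.945).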

How the data were processed

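The authors counted reads per gene with featureCounts in the DolphinNext pipeline and deposited raw counts, without normalization, for 12 libraries. The submitters' processing notes name GRCh38. The aligner, annotation and strandedness are not given in the sources used here. The test was that of edgeR 4.0.16 under R 4.3.3 (filterByExpr by group, TMM factors, quasi-likelihood fit of 6 groups, 6 residual degrees of freedom). The filter kept 19108 genes and left out 41483. P-values were adjusted by Benjamini-Hochberg over all genes tested. Normalized CPM is the count scaled to the TMM-adjusted library total. On simulated counts the procedure was tested before use. Alternatives were RLE and upper quartile factors, no filter, a replicate block, 1 fit per line, DESeq2 1.42.0 and leaving out each library.

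The members and gene lists were chosen with earlier results of these data known. Named were all 10 members, every cofactor, and per other list the genes with the highest and lowest mean change, most alike genes by r, plus markers. At the extremes, 17961765 and 26346187 reads were counted per library. Counts of replicates differed by more than sampling noise (chi-square per degree of freedom 4.29 to 7.75). Positions are from GENCODE 29 and promoter sequences from RefSeq (GRCh38.p14). At most 1.13% of the 50-base words of any member occur, in the same orientation, in transcripts of another gene. Overlaps on the opposite strand, as for TAGLN, VCL and ACTA2, are not counted in this share.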

Additional observations from a re-analysis of the deposited data

Results flagged for a closer look

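The change with drug differed between the lines (change in H1650 minus change in PC9, log2 scale, edgeR adjusted p under 0.05) for the following genes. Among the well-counted members the difference with erlotinib and with osimertinib was -1.30 and -1.16 for SRF, -4.56 and -5.35 for MYL9, -2.65 and -3.26 for TPM1, -2.69 and -2.43 for TPM2, -1.10 and -2.21 for TAGLN, -0.89 and -1.47 for CNN2, and -0.71 and -0.78 for VCL. The low-counted members gave -7.10 and -8.47 for ACTG2, -8.08 and -12.83 for CNN1, and -3.78 with osimertinib for ACTA2. Each of these low-counted members passed the filter through H1650 at T0, which favours a value below 0. The values for ACTG2 and CNN1 depend on the prior count of the fit, because PC9 at T0 had 0 counts, and are no measure of size.

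Among the pathway genes, differences below 0 were -0.92 and -0.98 for MRTFA, -0.99 and -1.31 for MYL6, -1.37 and -1.91 for FLNA, -2.08 and -2.16 for FHL2, -2.05 and -1.97 for GSN, -1.39 and -2.96 for FOS, and -2.97 and -4.40 for LMOD1, which rests on 1 to 28 counts a library. LMOD1 passed the filter through treated PC9, which favours a value below 0. Without H1650 T0 replicate 2 the LMOD1 values were -0.69 and -2.13, and both calls were lost. The osimertinib call was lost in no other alternative. The erlotinib call was also lost with DESeq2 (-3.01, adjusted p = 0.105) and in other fits that left out 1 library (-3.90 to -2.39). Differences above 0 were 0.54 and 0.51 for ELK3, 0.36 and 0.53 for ELK4, 0.74 and 0.70 for TPM3, 1.08 and 1.19 for SMTN, and 0.31 and 0.35 for PFN1. The erlotinib value of ELK4 lost its call with upper quartile factors (0.28, adjusted p = 0.0568) and without H1650 T0 replicate 1, PC9 erlotinib replicate 1, PC9 T0 replicate 2 or H1650 erlotinib replicate 2 (0.30 to 0.33, adjusted p = 0.0628 to 0.0787), and that of PFN1 without H1650 T0 replicate 2 (0.28, adjusted p = 0.0571). With 2 libraries in each group, no library was tested for standing apart.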

How the results depend on the processing

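The counts of members called stayed within 1.5 times of those reported under every alternative for 8 of the 9 comparisons. With osimertinib against erlotinib in H1650 the count was 2 and became 1 with 1 fit per line, and ran from 1 to 3 over the fits that left out 1 library. Some values that were not called changed sign when 1 library was left out, with ranges of -0.73 to 0.13 for ACTA2 in PC9 with erlotinib, and, for osimertinib against erlotinib, -0.113 to 0.0188 for SRF, -0.17 to 1.63 for ACTG2 and -0.27 to 0.12 for TPM2 in PC9, and -0.150 to 0.0783 for TAGLN, -1.59 to 0.78 for CNN1 and -0.00478 to 0.0571 for CNN2 in H1650. TAGLN at T0 (H1650 against PC9) ran from -0.0236 to 0.566, and was called without H1650 T0 replicate 1 (adjusted p = 0.0136). The labels do not say whether replicate numbers pair the libraries. The correlation of replicate deviations over 15 pairs of groups ran from -0.0671 to 0.0947. All tested genes weigh equally in it, the low-counted included, so it cannot exclude pairing. With the number as a block, 8 members were called in PC9 with erlotinib and 9 with osimertinib, as without it, and TPM1 became called for osimertinib against erlotinib in H1650 (0.20, adjusted p = 0.0113). Of the pathway genes, the calls of MRTFA in H1650 with osimertinib and of ELK4 and LMOD1 in the erlotinib difference between lines were lost under several alternatives, the cause of which was not tested. The other limits are depth and n: ACTA2, ACTG2 and CNN1 had at most 22 counts outside their highest group, and 2 libraries give an SD of low precision.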
